A study of Mus musculus with 9 samples.

Results

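The 9 genes described here encode the proteins that carry chloride, bicarbonate and sodium across the jejunal epithelium, together with the 2 hormones that set the balance between them. They were chosen by name and by Ensembl identifier, 9 of the 31685 genes measured. All 9 passed the filter for low values, FPKM values (read fragments divided by the length of the gene and by the total of the library) of 1 or more in 3 or more mice, which left 13056 genes to be tested. RNA came from jejunum that the labels call epithelial tissue, taken on day 3 from male C57BL/6J mice of 6 to 8 weeks, with 3 mice in each group. The control group had no treatment. The TAI group received 12 Gy of total abdominal irradiation with X-rays in a single dose, followed by PBS. The TAI/IVIg group received the same irradiation and 500 mg/kg of intravenous immunoglobulin (IVIg, pooled human IgG) into a vein within 1 h, with the injection repeated every 3 days. Libraries held 16282129 to 18241963 reads, and each value of the 9 genes rests on at least 296 reads. No group received IVIg without irradiation, and the controls are not stated to have received a mock injection.

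The epithelium moves fluid by moving salt. Crypt cells take up chloride through Slc12a2 (the sodium, potassium and chloride cotransporter of the basolateral membrane). They release it into the lumen through Cftr (a chloride channel that kinases activated by cyclic nucleotides open), and sodium and water follow. Villus cells absorb salt by pairing the sodium and hydrogen exchangers Slc9a3 and Slc9a2 with the chloride and bicarbonate exchangers Slc26a3 and Slc26a6, while Slc4a4 brings sodium and bicarbonate in across the basolateral membrane. Guca2a (guanylin) and Guca2b (uroguanylin) are peptides secreted into the lumen. They bind guanylate cyclase C, and the cyclic GMP it makes leads to the opening of Cftr and the restraint of Slc9a3. These are background roles and not results of these data.

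In GRCm38, the build that the labels name, the 2 guanylin genes lie side by side on chromosome 4. Guca2a occupies chr4:119637704-119639471 on the plus strand and Guca2b chr4:119656607-119658954 on the minus strand, with a gap of 17135 bases and 0 annotated genes between them. The stretches upstream of their starts, and that of Slc26a3, are shown because these 3 promoters held one of the 4 motifs searched. They come from the RefSeq promoter table for GRCm38.p6, and each is cut where an annotated exon begins. That table matched 7 of the 9 genes by symbol with 8 entries, 2 of them for Slc4a4. No entry was found for Slc9a2, and Slc12a2 was not looked up. Capitals mark the motif GTTAAT (part of the site of the HNF1 factors) in Slc26a3 and Guca2b, and TTATCT (the GATA motif AGATAA on the other strand) in Guca2a.
Guca2a: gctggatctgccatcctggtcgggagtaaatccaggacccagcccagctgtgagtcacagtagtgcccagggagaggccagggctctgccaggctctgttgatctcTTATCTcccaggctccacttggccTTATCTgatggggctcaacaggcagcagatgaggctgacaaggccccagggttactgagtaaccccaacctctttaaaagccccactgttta
Guca2b: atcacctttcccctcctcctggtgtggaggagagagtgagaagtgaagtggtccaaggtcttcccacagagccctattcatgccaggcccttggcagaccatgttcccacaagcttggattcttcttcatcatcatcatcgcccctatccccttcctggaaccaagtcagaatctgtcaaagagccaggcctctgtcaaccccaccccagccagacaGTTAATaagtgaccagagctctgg
Slc26a3: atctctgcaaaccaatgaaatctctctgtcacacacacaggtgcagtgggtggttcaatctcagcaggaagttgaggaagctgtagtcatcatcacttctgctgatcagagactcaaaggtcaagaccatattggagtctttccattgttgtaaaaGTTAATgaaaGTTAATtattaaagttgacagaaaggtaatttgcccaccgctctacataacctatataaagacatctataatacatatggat
The Guca2a stretch is chr4:119637482-119637703 on the plus strand, with its motif at -144 and -120 from the start. The Guca2b stretch is chr4:119658955-119659195 on the minus strand, with its motif at -33. The Slc26a3 stretch is chr12:31437969-31438216 on the plus strand, with its motif at -94 and -84. It precedes the RefSeq start and lies inside the longer GENCODE gene model (chr12:31390871-31473917), outside its exons. Of the other genes, Cftr lies at chr6:18170687-18322768, Slc26a6 at chr9:108853283-108913049, Slc9a3 at chr13:74121457-74169442, Slc9a2 at chr1:40680574-40769273 and Slc4a4 at chr5:88886818-89239653, all on the plus strand. On both strands and over the whole 250 bases before the start, GTTAAT was found in 6.43% of the 32851 promoters of the table and AGATAA in 9.99%. The motifs CAAAGTNCA (HNF4, in 1.19% of promoters) and TTTATG (CDX, in 10.8%) were in none of the matched promoters, and no motif was in those of Cftr, Slc26a6, Slc4a4 and Slc9a3. A match gives letters in a window and shows no binding.

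In the control mice the guanylins stood far above the transporters. The mean level was 928 FPKM ± 159 (SD, n = 3) for Guca2a and 640 ± 119 for Guca2b, ranks 36 and 58 among the tested genes by mean FPKM. Slc26a3 (36.3 ± 6.22), Slc26a6 (30.6 ± 3.78), Slc9a2 (27.0 ± 4.71) and Slc9a3 (22.1 ± 7.48) followed, and the mice of each neighbouring pair in that order overlapped. Slc4a4 (10.03 ± 1.17), Cftr (6.19 ± 1.12) and Slc12a2 (5.09 ± 1.69) were lowest. Slc4a4 stood clear of its neighbours on either side, while Cftr and Slc12a2 overlapped. After TAI the order changed. Guca2b (1001 ± 161) stood above Guca2a (646 ± 45.9) without overlap, and Slc26a6 (109 ± 4.86), Slc9a3 (62.7 ± 24.1), Slc9a2 (29.0 ± 2.79) and Slc26a3 (15.4 ± 3.87) were each clear of the next. The TAI/IVIg mice had the same order, from Guca2b (1316 ± 197) down to Slc12a2 (2.45 ± 0.751), but there Slc26a3 overlapped Slc4a4. In both irradiated groups Slc4a4 overlapped Cftr, and Cftr overlapped Slc12a2.

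**Figure D1:**
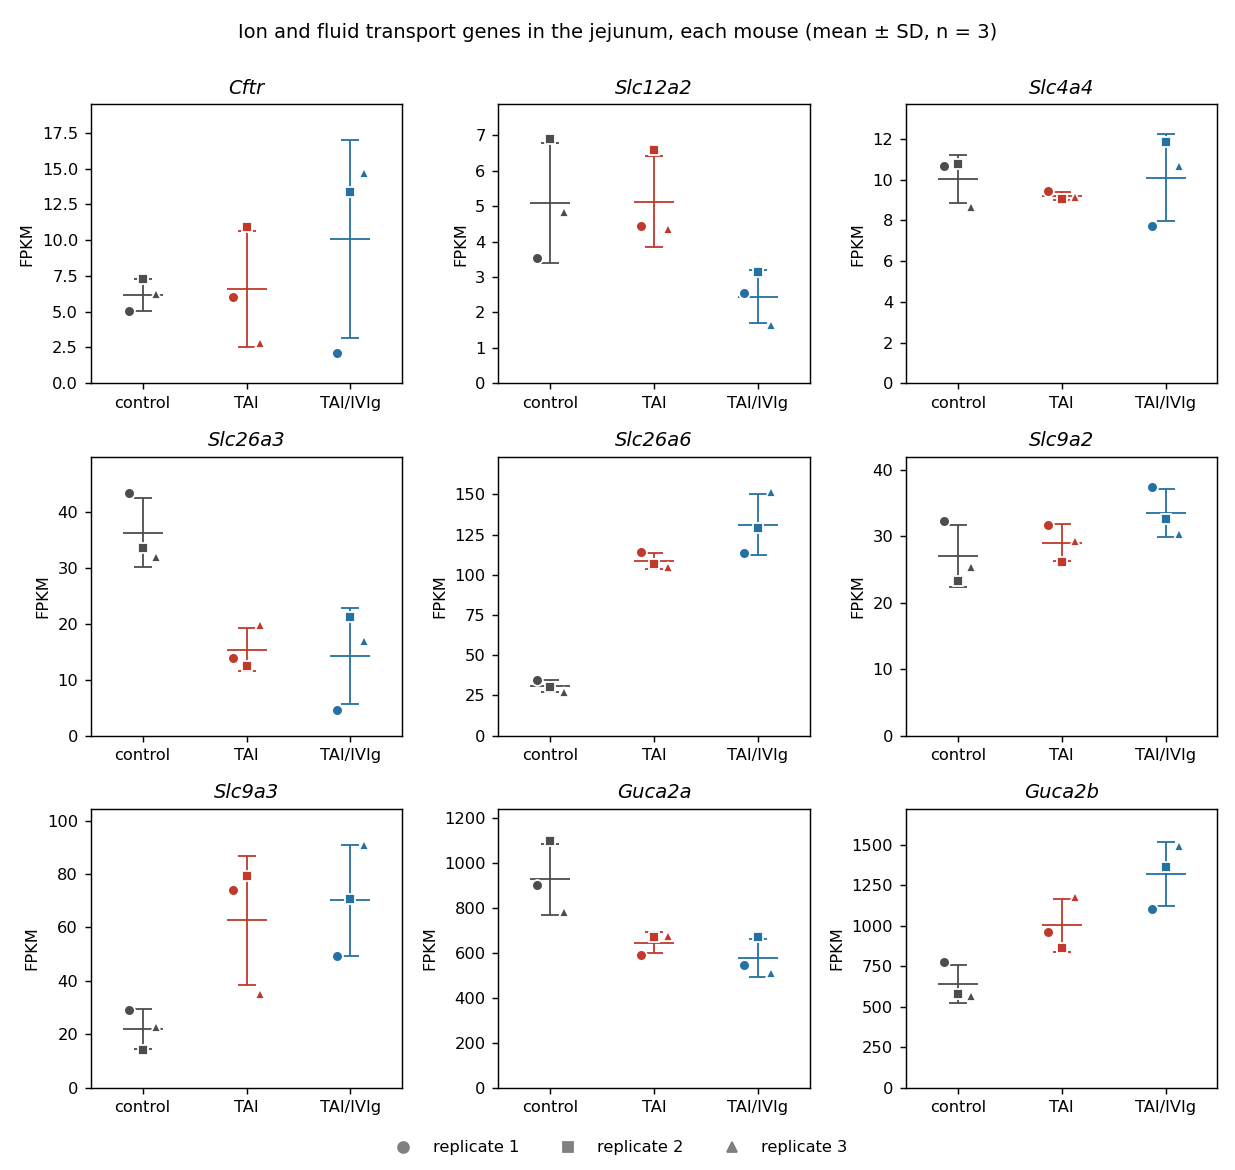
FPKM of the 9 genes on the y axes, with a separate scale for each gene, in the control, TAI and TAI/IVIg groups on the x axes. Each point is 1 mouse and bars give the mean ± SD of 3 mice. The control mice sit below all irradiated mice for Slc26a6, Slc9a3 and Guca2b and above them for Slc26a3 and Guca2a.

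Group differences below are on the log2(FPKM + 1) scale from limma, with p-values adjusted by the Benjamini-Hochberg method over the 13056 genes, and a gene was called at an adjusted p under 0.05. Between the TAI and control groups 3 of the 9 genes were called, all higher, against 8.81% of tested genes called higher and 26.1% called lower. Mice of the 2 groups did not overlap for 5 of the 9, 3 higher and 2 lower, where 15.1% and 38.0% of tested genes did so. Between the TAI/IVIg and control groups 6 of the 9 were called, 3 higher (9.06% of tested genes) and 3 lower (37.4%). The same 6 genes did not overlap, where 11.5% of tested genes were apart in the higher and 44.3% in the lower direction. The shares called lower are therefore no larger for these genes than for all tested genes. Both comparisons use the same 3 control mice.

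When the TAI/IVIg mice were set against the TAI mice, 0 of the 9 genes were called, as were 0.0% of all tested genes. The smallest adjusted p of that comparison was 0.353, and 1680 genes had an unadjusted p under 0.05. Voom, the other limma test that was run on recovered reads, called 0 of the 9 as well with either library size. A single gene, Slc12a2, did not overlap between these groups. It was lower in the TAI/IVIg mice, as were 16.1% of tested genes without overlap, against 3.09% that were higher.

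**Figure D2:**
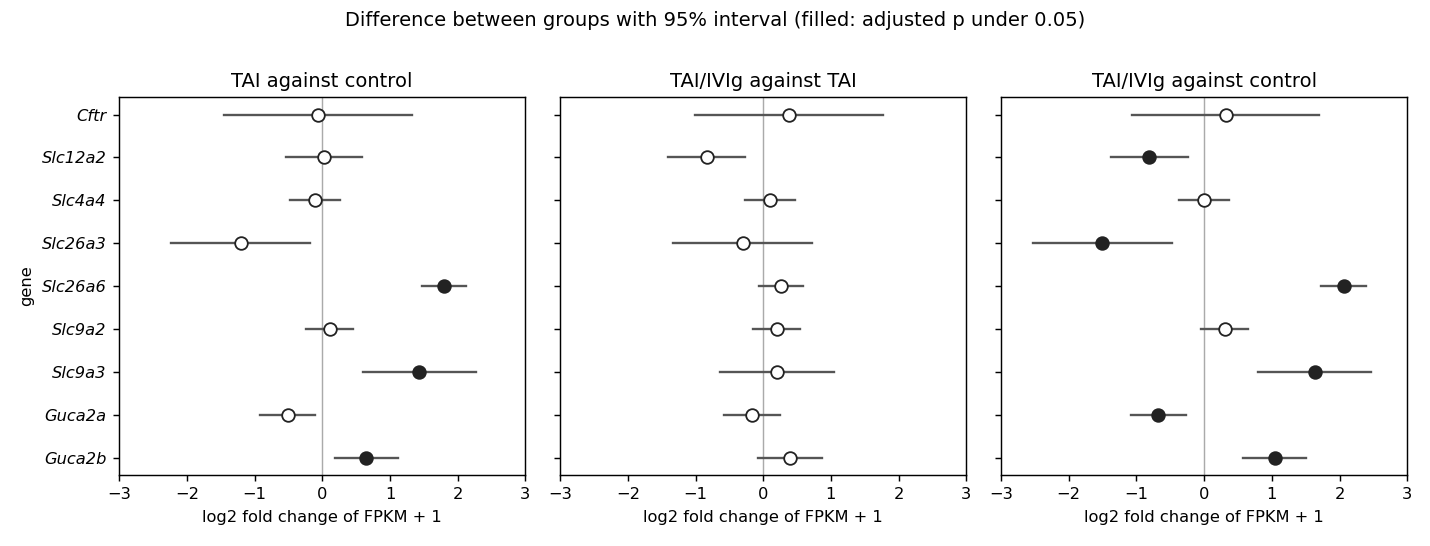
Log2 fold change of FPKM + 1 (x axis) of each gene (y axis) in the 3 comparisons, with lines for the 95% interval from limma and filled points for an adjusted p under 0.05. Slc26a6 at 1.80 and 2.06 lies farthest above 0 and Slc26a3 at -1.20 and -1.51 farthest below it when either irradiated group is set against the control group.

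The FPKM values carry a shift between groups that bears on every difference below. The median log2 fold change of the tested genes was -0.23 for TAI against control, -0.13 for TAI/IVIg against TAI and -0.39 for TAI/IVIg against control. With library medians set equal, genes called higher and lower in TAI against control went from 1150 and 3411 to 2159 and 1823, and in TAI/IVIg against control from 1183 and 4880 to 2880 and 1894. A value near 0 on the deposited scale is thus above the median gene. Quotients of FPKM within a mouse, given for pairs of genes, do not depend on that scale, while the log2 ratios of FPKM + 1 that were tested still depend on it through the added 1.

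For chloride secretion, the channel Cftr was at 5.05, 7.28 and 6.24 FPKM in the 3 control mice, at 6.04, 10.9 and 2.81 in the TAI mice, and at 2.12, 13.3 and 14.7 in the TAI/IVIg mice. Neither irradiated group stood apart from the control group, and the spread widened, from a coefficient of variation of 18.1% in the control group to 61.8% in the TAI and 68.7% in the TAI/IVIg group. The values rest on 296 to 1916 reads. The log2 fold change was -0.06 (95% interval -1.45 to 1.32, adjusted p = 0.944) for TAI against control and 0.38 (-1.004 to 1.77, adjusted p = 0.791) for TAI/IVIg against TAI. Both intervals include a log2 change of 1 in either direction, so neither change nor its absence was shown for Cftr, and the first difference was 0.23 with library medians set equal. Without TAI/IVIg replicate 1, the lowest mouse, the second difference was 1.14. A noncoding gene, Gm15592, lies antisense to Cftr and shares 129 bases of its exons, and its mean was at most 0.0114 FPKM in any group.

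Slc12a2, which loads chloride into crypt cells, was at 3.55, 6.89 and 4.82 FPKM in the control mice and at 4.44, 6.60 and 4.35 in the TAI mice. In the TAI/IVIg mice it was at 2.54, 3.15 and 1.65, so that all 3 lay below all 6 other mice. The fold change was 0.03 on the log2 scale (SE 0.25, adjusted p = 0.941) for TAI against control, -0.84 (SE 0.25, adjusted p = 0.353) for TAI/IVIg against TAI, and -0.81 (adjusted p = 0.0271) for TAI/IVIg against control. Only the last was called, a mean 2.08 times lower, and the call was lost when libraries were scaled to equal medians (-0.32, adjusted p = 0.26), scaled in any of the other 3 ways, tested with no filter on low values, or fitted without control replicate 2 or 3 or TAI/IVIg replicate 1 or 3 (adjusted p = 0.0526 to 0.094). The ratio of Slc12a2 to Cftr within a mouse was at -0.26 ± 0.18 (SD, n = 3) on the log2 scale in the control, -0.18 ± 0.59 in the TAI and -1.39 ± 1.42 in the TAI/IVIg group, with overlap in every comparison (exact two-sided permutation p = 0.3 for TAI/IVIg against TAI).

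Slc12a2 is itself a crypt gene, and it shared its highest mouse with the Paneth cell markers. In each group replicate 2 had the highest Slc12a2 and also the highest sum of the 7 Paneth markers, 5376 FPKM in the control, 5314 in the TAI and 1460 in the TAI/IVIg group. The other TAI/IVIg mice had sums of 344 and 150, below the 1031 to 2585 of the other control and TAI mice. Control replicates 1 and 3 had Slc12a2 at 3.55 and 4.82 FPKM beside Paneth sums of 1056 and 1031. TAI replicates 1 and 3 had Slc12a2 at 4.44 and 4.35 FPKM beside Paneth sums of 1960 and 2585. In both groups these mice thus stood in opposite order for Slc12a2 and the Paneth sum. TAI/IVIg replicates 1 and 3 stood in the same order, with Slc12a2 at 2.54 and 1.65 FPKM beside Paneth sums of 344 and 150. The median difference of those 7 genes was -2.74 for TAI/IVIg against TAI, and 0 of the 7 were called. Smooth muscle (-1.20), goblet (-0.97), endothelial (-0.55) and crypt markers (-0.52, a list that includes Slc12a2) also had medians below 0 in that comparison. None of their genes were called, and the villus enterocyte median was 0.23. The part of any of these lists in the Slc12a2 values was not tested. In bulk tissue fewer cells of a type and less RNA per cell cannot be told apart.

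For chloride and bicarbonate exchange, the 2 apical exchangers moved in opposite directions. Slc26a6, which also carries oxalate, was at 34.7, 29.9 and 27.2 FPKM in the control mice, at 114, 107 and 105 in the TAI mice, and at 113, 129 and 151 in the TAI/IVIg mice. All 6 irradiated mice lay more than 3 times above the control mean of 30.6. The rise was 3.55-fold in TAI (log2 1.80, SE 0.15, adjusted p = 0.000258) and 4.29-fold in TAI/IVIg (log2 2.06, adjusted p = 8.86e-05) against control, and it was called in all 11 alternatives and without each of the 9 mice. TAI/IVIg against TAI gave 0.26 (-0.07 to 0.59, adjusted p = 0.445).

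Slc26a3, the main chloride absorber of the distal gut, was at 43.5, 33.6 and 32.0 FPKM in the control mice. It was at 13.9, 12.4 and 19.7 in the TAI mice and at 4.56, 21.3 and 16.8 in the TAI/IVIg mice. All 6 irradiated mice lay below the lowest control mouse, while the TAI and TAI/IVIg mice overlapped. For TAI against control the log2 difference of -1.20 (-2.23 to -0.18) missed the threshold with all mice (adjusted p = 0.0673). It passed when only those 6 mice were fitted (adjusted p = 0.0059) or when TAI/IVIg replicate 1, the lowest mouse, did not enter the shared spread (adjusted p = 0.0036), and without TAI/IVIg replicate 2 (adjusted p = 0.0461). For TAI/IVIg against control Slc26a3 fell by 1.51 on the log2 scale (adjusted p = 0.0244), a mean 2.55 times lower, and that call was lost with equal library medians (-1.01, adjusted p = 0.113), under the other 3 scalings, with no filter on low values, and without any single control mouse (adjusted p up to 0.0677). Without TAI/IVIg replicate 1 the difference was -0.89 and was still called (adjusted p = 0.0172). TAI/IVIg against TAI gave -0.30 (-1.33 to 0.73).

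The ratio of Slc26a3 to Slc26a6 within a mouse showed the exchange of order most plainly. As a quotient of FPKM values it was 1.12 to 1.25 in the control mice, 0.116 to 0.189 in the TAI mice and 0.0402 to 0.165 in the TAI/IVIg mice. The log2 ratio of FPKM + 1 was lower by 3.00 in TAI and by 3.57 in TAI/IVIg than in control. Control and irradiated mice did not overlap. The exact two-sided permutation p was 0.1 for each, which is the smallest that 3 mice against 3 allow, and 0.1714 when adjusted over the 12 ratio tests.

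Slc4a4, the basolateral bicarbonate carrier, had the group means closest together among the 9 on the deposited scale, though not the smallest spread between mice. Its FPKM was 10.7, 10.8 and 8.68 in the control mice, 9.42, 9.04 and 9.16 in the TAI mice and 7.73, 11.9 and 10.7 in the TAI/IVIg mice, and the groups overlapped throughout. The log2 differences were -0.11 (-0.47 to 0.26) for TAI against control and 0.10 (-0.26 to 0.47) for TAI/IVIg against TAI. The first turned positive, at 0.18, with library medians set equal, and was not called under either scale.

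For sodium absorption, Slc9a3, the exchanger that cyclic GMP restrains, was at 29.2, 14.3 and 22.8 FPKM in the control mice. It was at 73.9, 79.1 and 35.0 in the TAI mice and at 49.2, 70.6 and 90.8 in the TAI/IVIg mice. All irradiated mice lay above all control mice, with TAI replicate 3 nearest to them. Slc9a3 rose 2.83-fold in TAI (log2 1.43, SE 0.37, adjusted p = 0.0174) and 3.17-fold in TAI/IVIg (log2 1.63, adjusted p = 0.00731) against control. The first call held in all 11 alternatives but was lost without control replicate 2, TAI replicate 1 or TAI replicate 2 (adjusted p = 0.0632, 0.0701 and 0.0579). TAI/IVIg against TAI gave 0.20 (-0.63 to 1.04).

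Slc9a2, its relative in the same membrane, was at 32.3, 23.3 and 25.4 FPKM in the control mice, 31.7, 26.1 and 29.2 in the TAI mice and 37.4, 32.6 and 30.4 in the TAI/IVIg mice. The groups overlapped. The log2 difference was 0.11 (-0.24 to 0.46) for TAI and 0.31 (-0.04 to 0.65, adjusted p = 0.127) for TAI/IVIg against control, and the second reached 0.80 and was called with equal library medians (adjusted p = 0.0195), and was called under the other 3 scalings and without control replicate 1 (adjusted p = 0.0425). The 2 exchangers parted within each mouse. The ratio of Slc9a3 to Slc9a2 was 0.615 to 0.905 in the control mice and 1.20 to 3.03 in the TAI mice, a log2 difference of 1.32 without overlap (exact permutation p = 0.1, adjusted 0.1714). The TAI/IVIg mice ran from 1.32 to 2.99, which overlapped the TAI mice.

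**Figure D3:**
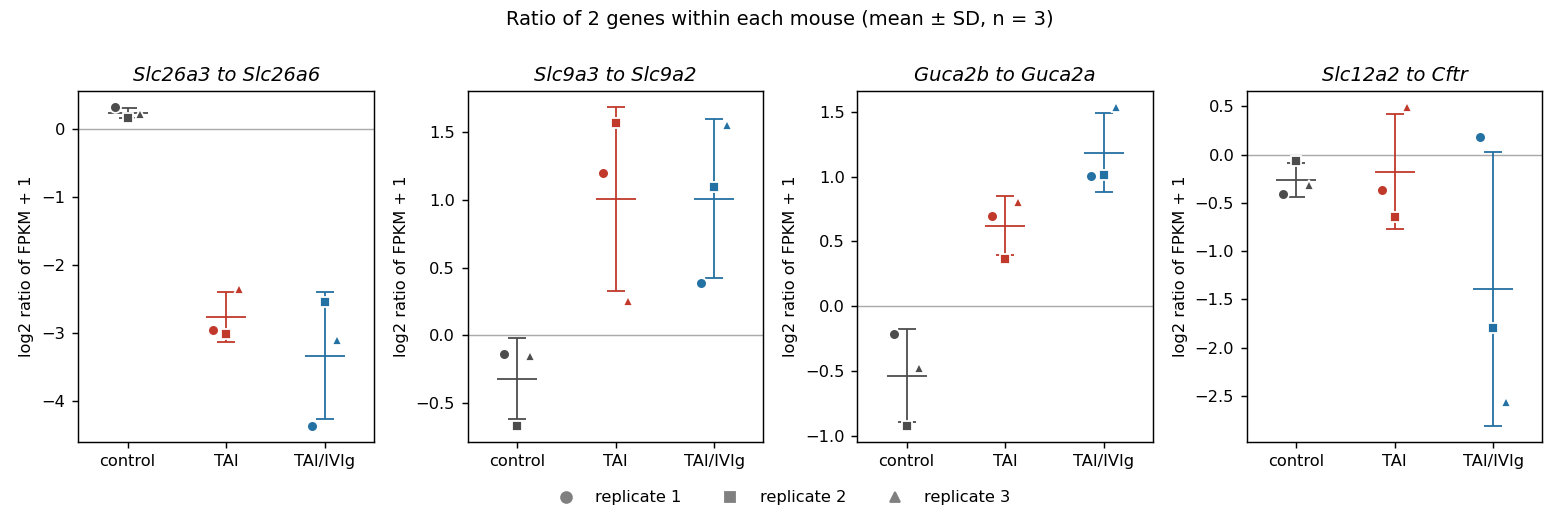
Log2 ratio of FPKM + 1 of 2 genes within each mouse (y axes) in the 3 groups (x axes), with points for mice and bars for the mean ± SD of 3 mice. The ratio of Slc26a3 to Slc26a6 drops from 0.23 in the control group to -2.77 in the TAI group, and that of Guca2b to Guca2a climbs from -0.54 through 0.62 to 1.18.

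Of the hormones, Guca2b was at 777, 578 and 564 FPKM in the control mice, at 962, 862 and 1178 in the TAI mice, and at 1101, 1359 and 1488 in the TAI/IVIg mice. All irradiated mice lay above all control mice, and the irradiated groups overlapped only between TAI replicate 3 and TAI/IVIg replicate 1. Guca2b rose 1.56-fold in TAI (log2 0.65, SE 0.21, adjusted p = 0.0381) and 2.06-fold in TAI/IVIg (log2 1.04, adjusted p = 0.00406) against control. The first call was lost with the replicate block, that is with the replicate number as a term (adjusted p = 0.057), with no filter on low values (adjusted p = 0.112) and without 5 of the 9 mice in turn, namely control replicates 2 and 3, TAI replicates 1 and 3 and TAI/IVIg replicate 2 (adjusted p up to 0.118). The second held throughout. TAI/IVIg against TAI gave 0.40 (-0.07 to 0.86, adjusted p = 0.428).

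Guca2a was at 901, 1098 and 785 FPKM in the control mice, at 593, 670 and 675 in the TAI mice, and at 548, 673 and 513 in the TAI/IVIg mice. The control mice lay above all irradiated mice, and the irradiated groups overlapped. The log2 difference of -0.51 (-0.92 to -0.10) for TAI against control missed the threshold (adjusted p = 0.0552) and passed it with the replicate block (adjusted p = 0.0444), with a mean FPKM of 5 or more, quantile normalization, no trend or voom with total sizes (adjusted p = 0.0175 to 0.0415), and without control replicate 3 (adjusted p = 0.0464). For TAI/IVIg against control Guca2a fell by 0.68 on the log2 scale (adjusted p = 0.0148), a mean 1.61 times lower. That call was lost without control replicate 2 or TAI/IVIg replicate 3 (adjusted p = 0.0558 and 0.0548). With library medians set equal the differences were -0.22 and -0.19 and neither was called. Centring on the epithelial list gave -0.295 and -0.26, and voom with median-ratio sizes gave -0.22 and -0.20, again without a call. Only with quantile normalization, the remaining scaling, were both called, at -0.70 and -0.85. TAI/IVIg against TAI gave -0.17 (-0.58 to 0.24).

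The ratio of Guca2b to Guca2a within a mouse therefore turned over. Guca2a was the more abundant in all 3 control mice, with a ratio of 0.526 to 0.863, and Guca2b in all 6 irradiated mice, with 1.29 to 1.74 in the TAI and 2.01 to 2.90 in the TAI/IVIg group. No 2 of the 3 groups overlapped. The log2 ratio was 1.16 higher in TAI than in control and 0.56 higher in TAI/IVIg than in TAI (exact two-sided permutation p = 0.1 for each, the smallest 3 against 3 allow, adjusted 0.1714). It was the only one of the 4 ratios that was apart between the TAI/IVIg and TAI mice, and leaving out single mice gave 0.39 to 0.65.

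Other genes of the pathway that the guanylins feed were read from a list. Their receptor Gucy2c was at 62.8 to 81.8 FPKM in the control mice, 84.6 to 94.1 in the TAI mice and 78.7 to 107 in the TAI/IVIg mice, with a log2 difference of 0.28 for TAI against control (adjusted p = 0.204). Prkg2, the cyclic GMP kinase that phosphorylates Cftr, was at 5.18, 3.68 and 3.58 in the control and 7.67, 21.5 and 27.0 in the TAI/IVIg mice, a called rise of 1.79 (adjusted p = 0.00829). In the TAI mice Prkg2 was at 9.85, 14.1 and 6.77 (adjusted p = 0.0703 against control). The TAI/IVIg mice varied widely in Prkg2 (coefficient of variation 53.2%), and their replicate 1 lay within the range of the TAI mice. Whether the Prkg2 call held under the alternatives was not read. Of the phosphodiesterases that break down cyclic GMP, Pde9a rose by 0.85 and Pde5a fell by 0.82 in TAI against control (adjusted p = 0.0257 and 0.00252). The Pde5a call was lost when libraries were centred on the epithelial list.

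Over the 8 lists of genes with related roles, without the 9 genes themselves, 121 symbols were listed, 116 were in the table and 71 were tested. The symbols not found were Gucy2f, Nherf1, Nherf2, Nherf3 and Nherf4. The Nherf symbols are other names of Slc9a3r1, Slc9a3r2, Pdzk1 and Pdzd3, which were listed too and were in the table. For TAI against control 18 were called higher, 7 lower and 46 neither, where 8.81% of all tested genes were called higher and 26.1% lower. The counts of single lists in that comparison, given below, are to be read beside the same shares. The median log2 fold change was 0.20 beside -0.23 for all tested genes. For TAI/IVIg against control 23 were higher, 14 lower and 34 neither (median 0.06 beside -0.39). Of all tested genes 9.06% were called higher and 37.4% lower there. For TAI/IVIg against TAI 0 of 71 were called (median 0.01 beside -0.13). With library medians set equal the list genes called higher and lower in the first 2 comparisons became 25 and 3, and 35 and 5. Of the 22 list genes named for TAI against control, 13 were called in every alternative and without each mouse. The other 9 were Aqp3, Clca4b, Kcnk6, Kcnn4, Oxsr1, Pde5a, Pde9a, Prkar2a and Slc26a2.

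In the chloride secretion list 4 of 9 tested genes were higher and 0 lower in TAI against control. Clca4a, a regulator of calcium-activated chloride conductance, rose 9.82-fold, from 94.2 to 145 FPKM in the control mice to 982 to 1578 in the TAI mice (log2 3.27, adjusted p = 0.000269). Clca4b rose 2.00-fold (adjusted p = 0.0147). These near relatives can share reads, so the split between them is uncertain. The chloride channel Clcn2 rose 1.93-fold (adjusted p = 0.00387). Among the exchangers 2 of 6 were higher and 0 lower, Slc4a10 (0.86 on the log2 scale) from a mean of 0.231 to 1.25 FPKM, and the sulphate carrier Slc26a2 (0.61).

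In the sodium absorption list 1 of 5 was higher and 0 lower, the sodium channel subunit Scnn1a (0.63), from a mean of 0.711 to 1.64 FPKM. The subunits Scnn1b and Scnn1g of that channel had means of at most 0.00731 and 0.112 FPKM in any group and were not tested. The glucose-coupled sodium carrier Slc5a1 was at 0.57 (adjusted p = 0.101) in TAI and rose by 0.97 (adjusted p = 0.0116) in TAI/IVIg against control. Whether the Slc5a1 call held under the alternatives was not read either. Of the scaffold and cofactor proteins that hold Slc9a3 at the membrane, 2 of 8 were higher and 0 lower. Pdzk1 rose 2.83-fold, from 12.1 to 23.1 FPKM in the control to 45.2 to 52.8 in the TAI mice, and the exchanger cofactor Chp2 rose 2.08-fold.

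Aquaporins, the water channels, were the list of the 8 with the highest median in TAI against control, 1.81 over 4 tested genes, of which 3 were higher. Aqp1 rose 5.44-fold, from 7.05 to 16.3 FPKM in the control to 53.0 to 72.2 in the TAI mice (adjusted p = 0.000998), Aqp7 rose 5.88-fold and Aqp3 2.80-fold. The Aqp3 call was lost with the replicate block, with no filter and with only the 6 mice compared. Aqp11 was at -0.07.

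Potassium channels and the sodium pump, which drive secretion from the basolateral side, had 1 of 14 higher and 2 lower in TAI against control. Kcnk5 rose 2.57-fold. The calcium-activated channel Kcnn4 fell by 1.32 on the log2 scale, from 3.27 to 7.71 FPKM in the control to 0.997 to 2.63 in the TAI mice, a call lost without any one of control replicates 2 and 3 and TAI replicates 1 and 3. Kcnk6 fell by 0.61, a call lost under all 4 other scalings (equal medians, quantile normalization, the epithelial list and median-ratio sizes). In the receptor and kinase list 4 of 20 were higher and 4 lower. Sgk1, a kinase that raises sodium absorption, rose 3.61-fold, the protease receptor F2rl1 1.93-fold and the ubiquitin ligase Nedd4l 2.02-fold. Stk39, a kinase that activates Slc12a2, fell by 1.08 (adjusted p = 0.0137), Prkar2a by 0.67 and Oxsr1, which acts like Stk39, by 0.47. The last 2 were lost under all 4 other scalings.

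**Figure D4:**
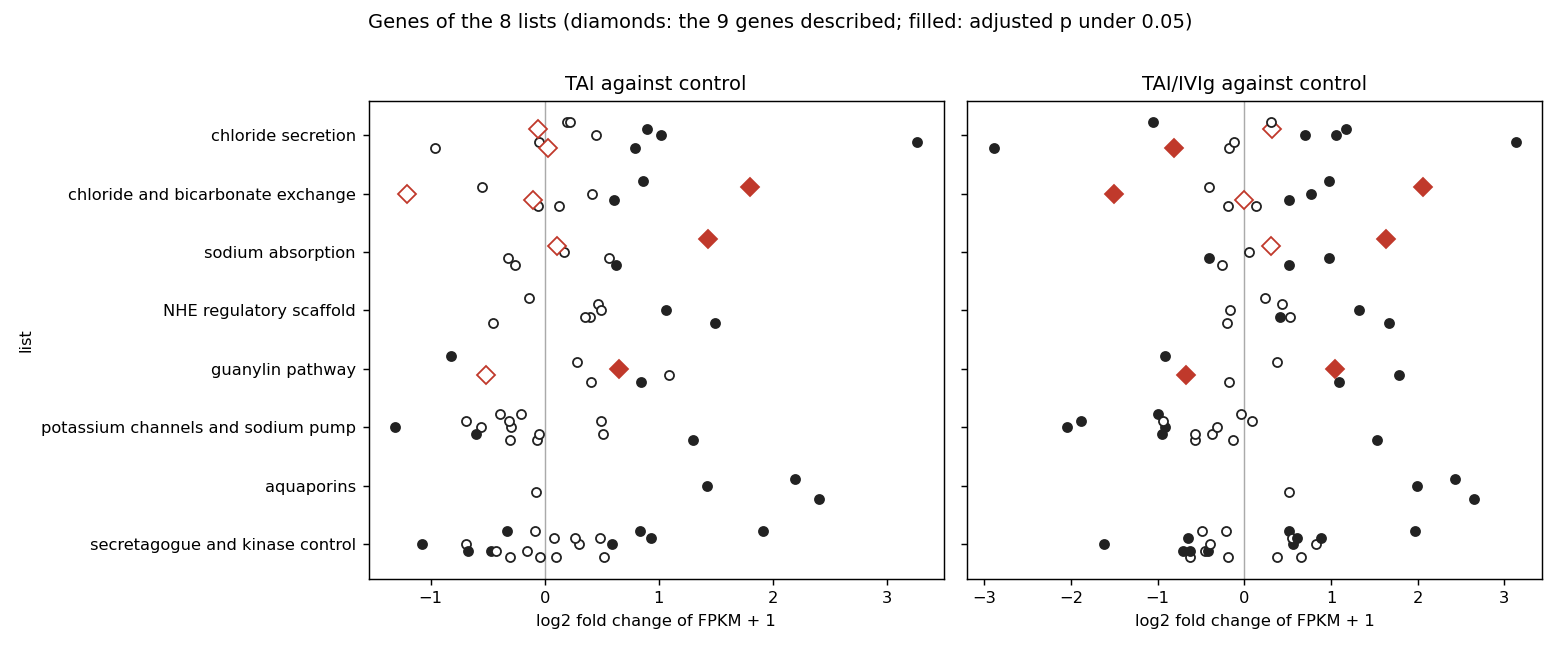
Log2 fold change of FPKM + 1 (x axes) of every tested gene of the 8 role lists (y axis) in TAI and in TAI/IVIg against control, with diamonds for the 9 genes described and filled symbols for an adjusted p under 0.05. In the left panel the 3 filled aquaporins lie between 1.43 and 2.40 and Clca4a lies farthest to the right at 3.27.

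Marker lists moved with the groups too. Of the villus enterocyte markers 8 of 12 were called higher and 0 lower in TAI against control, among them the brush border enzymes Lct (log2 4.13) and Treh (3.57). Sis, another brush border enzyme, was at 257 to 510 FPKM in the control and 129 to 196 in the TAI mice, without overlap (log2 -1.12, adjusted p = 0.0631), and Enpep was at -0.12 (adjusted p = 0.683). Their sum ran from 13646 to 21888 FPKM in the control, 31310 to 51959 in the TAI and 46103 to 50287 in the TAI/IVIg mice. Crypt markers, a list that includes Slc12a2, had 5 of 8 lower and 1 higher, Axin2. Their sum ran from 63.1 to 169, from 45.5 to 54.3 and from 42.4 to 49.0 FPKM. The list joins genes of dividing cells (Mki67, Top2a, Mcm5 and Pcna) with stem cell genes, which did not move as one. Means in the control, TAI and TAI/IVIg groups were 27.5, 1.62 and 0.449 FPKM for Olfm4 and 5.68, 5.51 and 3.52 for Smoc2. Lgr5, which was not tested, had means of 0.645, 0.622 and 0.543. Slc26a6, Slc9a3 and Guca2b thus rose beside villus markers, and Slc26a3 and Guca2a did not. The part of either list in the transporter results was not tested. The epithelial list moved both ways, with 2 of 9 higher and 3 lower.

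The tissue label met markers of the neighbouring gut segment. Fabp6, a bile acid binding protein typical of the ileum, was at 7326 to 8177 FPKM in the control mice, 1372 to 3529 in the TAI mice and 208 to 1351 in the TAI/IVIg mice. It fell by 4.25 on the log2 scale in TAI/IVIg against control (adjusted p = 0.00161), and the bile acid carrier Slc10a2 fell by 2.28. Of the 3 ileum markers 2 were lower there, and 0 of 3 were called in TAI against control. The 3 duodenum markers summed to 0.677 to 3.11 FPKM and none passed the filter. Within the TAI/IVIg group replicate 1 had the highest ileum sum (1406 FPKM beside 237 and 246) and the lowest Cftr, Slc4a4, Slc26a3, Slc26a6, Slc9a3, Guca2b and Prkg2. That mouse also had the highest Slc9a2, and it was in the middle for Guca2a and Slc12a2. Within the TAI group replicate 3 had the highest ileum sum (3612 FPKM). It had the highest Slc26a3, Guca2a and Guca2b and the lowest Cftr, Slc12a2, Slc26a6, Slc9a3 and Prkg2, with Slc4a4 and Slc9a2 in the middle. Since ileum markers differ with the groups, the place along the gut from which tissue came and the treatment cannot be told apart for these genes, several of which vary along the intestine.

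Markers of other cell types were read in the same way. Smooth muscle markers summed to 482 to 621 FPKM in the control, 536 to 765 in the TAI and 113 to 554 in the TAI/IVIg mice, and 0 of 6 were called in any comparison. Immune markers ran from 56.7 to 457, 40.7 to 243 and 24.7 to 251 FPKM, with control replicate 3, TAI replicate 3 and TAI/IVIg replicate 2 highest, and 0 of 6 were called. For TAI against control, goblet markers had 3 of 7 higher and 1 lower, enteroendocrine markers 0 of 6 higher and 2 lower, enteric neuron and glia markers 2 of 6 higher and 0 lower, and endothelial (4 tested) and tuft markers (2 tested) none. For TAI/IVIg against control, goblet markers had 0 of 7 higher and 3 lower, and enteroendocrine markers 1 of 6 higher and 2 lower. Enteric neuron and glia markers had 1 of 6 higher and 1 lower, and endothelial and tuft markers none. The median goblet difference for TAI/IVIg against TAI was -0.97 beside -0.13 for all tested genes, with 0 of 7 called. The part of these cell types in the results was not tested.

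**Figure D5:**
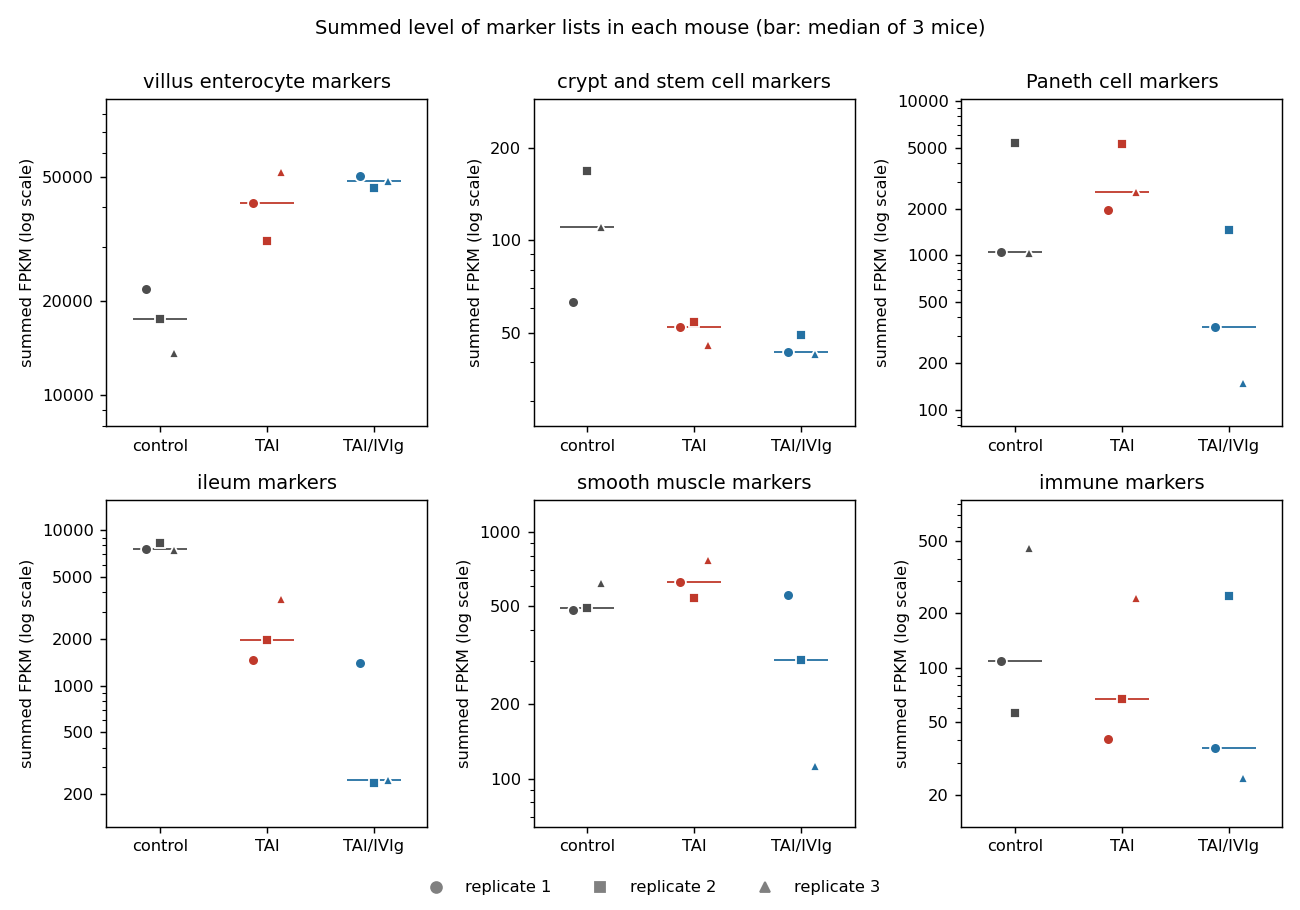
Summed FPKM of 6 marker lists on log y axes in the 3 groups (x axes), with points for mice and bars for the median. The ileum sum lies between 7456 and 8258 FPKM in the control mice and at 3612 or less in all irradiated mice, and replicate 2 has the highest Paneth sum in each group.

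Each gene's nearest profile, the tested gene with the smallest root-mean-square difference of log2(FPKM + 1) over the 9 mice after centring on the control mean, was read as a description with no test. For Slc26a6 it was Tmem89 (0.11), followed by 2010003K11Rik (0.16), at mean levels of 32.3, 110 and 129 FPKM in the control, TAI and TAI/IVIg groups beside 30.6, 109 and 131 for Slc26a6. Tmem89 lies at chr9:108914619-108915563 on the same strand, less than 2 kb past the end of Slc26a6 at 108913049, and had means of 0.504, 4.17 and 5.53 FPKM. Whether reads of one gene were counted to the other was not tested. For Guca2b the nearest were Uap1l1 and Tmem263 (both 0.11), for Guca2a Zyx (0.08) and Gatad1 (0.09), and for Slc9a2 Sult2b1 (0.07) and Tmem238l (0.09). For Slc9a3 they were Adh6a (0.27) and Clca3a2 (0.29), for Slc12a2 Fam174b (0.14) and Cd93 (0.17), and for Slc4a4 Ppfibp2 and Vapb (both 0.08). Those of Slc26a3, Ighv6-3 (0.27) and Gm32391 (0.31), and of Cftr, Gjb1 (0.38) and Kctd14 (0.45), were the least close.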

How the data were processed

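RNA of 9 jejunal samples was sequenced, and the labels place 3 in each group. As deposited by the authors, the unit is FPKM, with a column for each mouse and none pooled. The submitters' processing notes name FastQC, Trimmomatic, STAR and featureCounts with no versions, and the builds mm10 and GRCm38. All 9 columns were used (0 were left out). The lengths behind the FPKM values equalled the GENCODE M21 exon unions for 7 of the 9 genes, all but Slc26a6 and Slc4a4. FPKM values were whole multiples of a single read's worth (100% of genes within 0.005 reads, 281 of them up to a common factor), which gave 16282129 to 18241963 reads per library (median 17310189). Symbols were paired with 31146 of 31685 identifiers.

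The limma package (3.58.1, R 4.3.3) was run on log2(FPKM + 1) with the groups as terms, a trended empirical Bayes step and all 9 mice. It covered the 13056 genes at an FPKM of 1 or more in 3 or more mice, with Benjamini-Hochberg adjustment. Ratios within a mouse were compared by exact two-sided permutation tests. The members, lists and tests were chosen with earlier results of these data known. Role-list genes named in the text are those called in TAI against control, up to 3 in each direction by list, and Gucy2c, Prkg2, Slc5a1, Aqp11 and the marker genes named were chosen after their values were seen. Each sample is a mouse according to the study, and p-values measure the spread between these samples.

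To check whether replicate numbers pair mice, deviations from group means were correlated. Same-numbered control and TAI mice gave 0.271, 0.241 and 0.308, and pairs with a TAI/IVIg mouse gave -0.296 to 0.201. Neither the labels nor the paper say what a shared number means, and differently numbered mice were not correlated. Whether the numbers pair mice was therefore not settled, and the replicate block is given where it changes a call. On simulated reads for TAI against control, 100 of 100 genes changed 4 times and 77 of 100 changed 2 times were called, as were 10 unchanged genes, among 13438. These reads were drawn from the control means with a dispersion (spread between mice) of 0.03 for every gene and no overall shift between groups. The shares called therefore do not carry over to genes with a wider spread, such as Cftr. Alternatives were another pseudocount (0.1), a mean FPKM of 5 or more or no filter, 3 other scalings, a fit of the 6 mice compared alone, an untrended step, the replicate block, voom on recovered reads with total or median-ratio sizes, and each mouse left out in turn. The result of 1 further marker list is not reported here.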

Additional observations from a re-analysis of the deposited data

How the results depend on the processing

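Against 3 genes called in TAI against control, the alternatives gave 2 to 4 and leaving out single mice gave 1 to 4. Slc26a6 alone was called without control replicate 2 and without TAI replicate 1. Against 6 in TAI/IVIg against control they gave 4 to 6 and 3 to 6, the 3 without control replicate 2. In TAI/IVIg against TAI 0 were called in every setting run. The replicate block gave 3, 0 and 6 calls. In TAI against control it added Guca2a (adjusted p = 0.0444) and lost Guca2b (0.057), and it changed no other call of the 9 genes.

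Over all tested genes, centring on the epithelial list gave 1346 called higher and 1129 lower in TAI against control, and 1921 and 1312 in TAI/IVIg against control, and leaving out mice gave 698 to 1305 and 1645 to 3597 in the first, lowest without TAI replicate 1. In TAI/IVIg against TAI 4 genes were called lower with no filter and 3 with the replicate block, and 0 in the other settings. Among the 9 genes, signs turned only for differences that were not called. With library medians set equal, quantile normalization, centring on the epithelial list and voom with median-ratio sizes, in that order, Cftr in TAI against control went from -0.06 to 0.23, 0.22, 0.15 and 0.19, Slc4a4 from -0.11 to 0.18, 0.18, 0.11 and 0.18, and Slc4a4 in TAI/IVIg against control from -0.0049 to 0.49, 0.41, 0.41 and 0.47. Guca2a in TAI/IVIg against TAI went to 0.036, 0.035 and 0.013 with equal medians, the epithelial list and median-ratio sizes. Leaving out single mice gave -0.46 to 0.36 for Cftr and -0.17 to 0.23 for Slc12a2 in TAI against control. In TAI/IVIg against TAI it gave -0.041 to 1.14 for Cftr, -0.69 to 0.31 for Slc26a3, -0.015 to 0.27 for Slc4a4 and -0.17 to 0.44 for Slc9a3, and in TAI/IVIg against control -0.092 to 1.07 for Cftr and -0.12 to 0.16 for Slc4a4. The ratio of Slc9a3 to Slc9a2 in TAI/IVIg against TAI ran from -0.37 to 0.32 and that of Slc12a2 to Cftr in TAI against control from -0.24 to 0.32. The cause was not tested.

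With 3 mice a group, the exact tests cannot pass 0.05. Slc12a2 and Cftr rest on 303 and 296 reads in their lowest libraries.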
